A study of Mus musculus with 10 samples.

Results

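The genes described here are a transcription network of 10 named genes: the repressors Bach1 and Bach2, the activator Nfe2l2 (NRF2) with its inhibitor Keap1, the small Maf partners Mafk, Mafg and Maff, and the target genes Hmox1, Gclc and Gclm. They were chosen by symbol, and 9 of the 10 were found among the 26173 genes of the table; Maff is not analysed here. RNA was sequenced from alveolar macrophages, the resident phagocytes of the airspace, of C57BL/6 mice labelled female and 16 weeks old, with 2 samples in each of 5 groups. The groups were germline Bach2 knockout mice and wild-type mice, and, in a line with floxed Bach2 and a CD4cre transgene, a knockout fraction with aberrant surface markers, a knockout fraction with normal surface markers, and the conditional controls of that line. Cre driven by Cd4 acts mainly in T cells, so Bach2 may be intact in the macrophages of that line, and the labels do not say which alleles the conditional controls carry. Both conditional knockout fractions were selected by surface markers, and nothing in the labels says how many mice contributed to a sample.

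Bach1 and Bach2 are basic leucine zipper proteins that bind DNA only when paired with a small Maf protein, at Maf recognition elements and the related antioxidant response elements. NRF2 pairs with the same small Mafs and activates genes at the same elements. KEAP1 hands NRF2 to the CUL3 ubiquitin ligase in unstressed cells, and haem binds both Bach proteins, removes them from DNA and so frees Hmox1, which encodes the haem-degrading enzyme. In the lung, alveolar macrophages take up haem from stray red cells and meet inhaled oxidants, and mice that lack Bach2 are known to develop lung disease with accumulated surfactant.

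In these libraries Bach2 itself was barely detected, and its paralogue Bach1 was measured in all of them. Gclc, the catalytic subunit of glutathione synthesis, was 19.5-fold higher in FPKM in the aberrant-marker library than in the conditional control. That library also held T cell and dendritic cell transcripts, and which cells held its Gclc cannot be read from a bulk sample. The partner subunit Gclm stayed within a 1.46-fold range over all 5 libraries. Hmox1 was lowest in the aberrant-marker library and highest in the conditional control. Keap1 and Mafk differed more between the wild-type and conditional control libraries than between any knockout library and the control of its own line. Nfe2l2 stayed within a 1.93-fold range.

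The core of the antioxidant response element, the letters TGACNNNGC on either strand, was searched for in RefSeq promoters of build GRCm38.p6, each covering 250 bases before to 50 after a gene's start. A match was found in 12.4% of all 32851 promoters of that table. Of the 9 measured genes 7 had an entry, and 4 of these held the core once: Nfe2l2, Mafk, Mafg and Gclm. The 4 promoters are shown because they hold the core letters of the element to which Bach, NRF2 and small Maf proteins are known to bind; capitals mark the match, and each runs 5′ to 3′ on the strand of its gene. Nfe2l2 lies at chr2:75704614-75704913 on the minus strand, Mafk at chr5:139791286-139791585 on the plus strand, Mafg at chr11:120633498-120633797 on the minus strand and Gclm at chr3:122245307-122245606 on the plus strand.
Nfe2l2: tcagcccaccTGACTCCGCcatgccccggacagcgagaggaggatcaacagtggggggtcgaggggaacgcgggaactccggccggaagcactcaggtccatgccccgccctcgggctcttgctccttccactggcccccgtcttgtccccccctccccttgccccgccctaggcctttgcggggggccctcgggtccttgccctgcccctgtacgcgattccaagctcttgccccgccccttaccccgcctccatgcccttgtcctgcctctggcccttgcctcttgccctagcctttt
Mafk: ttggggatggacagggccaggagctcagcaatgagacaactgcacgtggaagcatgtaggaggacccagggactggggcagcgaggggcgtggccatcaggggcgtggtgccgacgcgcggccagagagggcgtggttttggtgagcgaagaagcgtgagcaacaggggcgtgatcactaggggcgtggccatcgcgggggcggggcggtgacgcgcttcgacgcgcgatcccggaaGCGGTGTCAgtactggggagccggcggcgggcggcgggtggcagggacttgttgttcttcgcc
Mafg: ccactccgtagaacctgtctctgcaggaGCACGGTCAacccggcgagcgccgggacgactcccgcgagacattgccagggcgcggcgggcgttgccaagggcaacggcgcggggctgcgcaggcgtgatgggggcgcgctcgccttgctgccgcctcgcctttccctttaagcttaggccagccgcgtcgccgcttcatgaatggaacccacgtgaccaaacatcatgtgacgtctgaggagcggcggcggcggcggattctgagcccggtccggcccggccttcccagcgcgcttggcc
Gclm: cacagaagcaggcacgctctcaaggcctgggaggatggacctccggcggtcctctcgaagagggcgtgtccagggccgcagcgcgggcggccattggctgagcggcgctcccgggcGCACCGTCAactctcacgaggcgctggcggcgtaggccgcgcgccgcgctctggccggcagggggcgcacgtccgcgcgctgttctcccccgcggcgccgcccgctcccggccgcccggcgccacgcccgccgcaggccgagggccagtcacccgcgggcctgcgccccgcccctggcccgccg
The match began 240 bases upstream of the start in Nfe2l2, 13 in Mafk, 222 in Mafg and 134 in Gclm, on the strand of the gene in Nfe2l2 and on the opposite strand in the other 3. The promoter entries of Bach1, Bach2 and Keap1 held no match, which says only that these letters are not in that window. None of the 7 held the letters TGANTCAGC, the Maf-type element that contains the AP-1 site TGANTCA, or the AP-1 site alone; they occur in 1.19% and 7.81% of all promoters. The longer of these contains the shorter, and both can overlap the antioxidant core.

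Values are FPKM, fragments per kilobase of transcript scaled to sequencing depth, as the authors deposited them. The low values fall on steps that put the depth of a sample at about 7560000 to 9610000 fragments, and 1 read on a transcript of 2 kb is worth about 0.0520 to 0.0661 FPKM. The 2 samples of a group correlated at 0.993 to 0.998 on the log2(FPKM + 1) scale, against 0.685 to 0.853 for samples of different groups, and they differed by little more than sampling noise. They were therefore averaged and counted as 1 library per group. Their spread measures sequencing and not mice, no p-value is given, and differences between groups have no replicate check. A gene counted as called if its log2(FPKM + 1) values differed by 2 or more, which is 4-fold, in the library means and in all 4 pairings of samples, and if the higher mean reached 20 FPKM. The tissue label held for the wild-type library, with Marco at 339 FPKM, Siglec5 at 151 and Chil3 at 9278, but Marco was at 13.5 FPKM in the germline knockout and 0.258 in the aberrant-marker library, and Siglec5 at 0.0247 and 0.134. Chil3 was at 46574 FPKM in the germline knockout and 8291 in the aberrant-marker library, and the 11 alveolar macrophage markers found reached 1 FPKM in all libraries but these, where 9 did. The aberrant-marker library held T cell and dendritic cell transcripts as well: 13 of 15 T cell markers and 10 of 12 dendritic cell markers were at 1 FPKM or more. Against the female label, the Y-linked gene Eif2s3y was at 39.9 FPKM in the germline knockout and 60.8 in the wild type. It was at 0.107, 0 and 0 FPKM in the aberrant-marker, normal-marker and conditional control libraries. Ddx3y, also Y-linked, was at 7.18 FPKM in the germline knockout and 24.2 in the wild type. The female-expressed gene Xist was at 3.32e-25 and 0.00237 FPKM there. In the aberrant-marker, normal-marker and conditional control libraries Xist was at 9.08, 6.83 and 3.75 FPKM. Apparent sex and mouse line therefore cannot be told apart in any comparison between the 2 lines.

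Bach2 is the gene targeted in the study, a repressor best known from B and T lymphocytes. It was at 7.78e-20 and 0.0584 FPKM in the 2 germline knockout samples, against 7.01e-19 and 2.02e-27 FPKM in the wild-type samples. Aberrant-marker samples had 0.0146 and 0.0260 FPKM, normal-marker samples 0.0761 and 0.0382, and conditional control samples 0.0246 and 0.0126. On the RefSeq transcript of 8493 bases, these values amount to an estimated 3.91 reads in 1 germline knockout sample and far under 1 in the other and in both wild-type samples. The estimate was 0.936 and 1.81 reads in the aberrant-marker, 5.85 and 2.99 in the normal-marker and 2.01 and 0.972 in the conditional control samples. The targeted gene was too low in every library, controls included, to check the genotype labels, and no difference in it was detectable at this depth. It did not pass the filter of 1 FPKM in 2 columns and enters no comparison. Of 8 B cell markers 1 passed the filter, Cd22, at 71.6 FPKM in the germline knockout, against 55.5 in the wild type, and at 29.2 and 64.4 FPKM in the aberrant-marker and normal-marker libraries, against 45.3 in the conditional control. Cd79a was listed at 0 in every library.

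**Figure D1:**
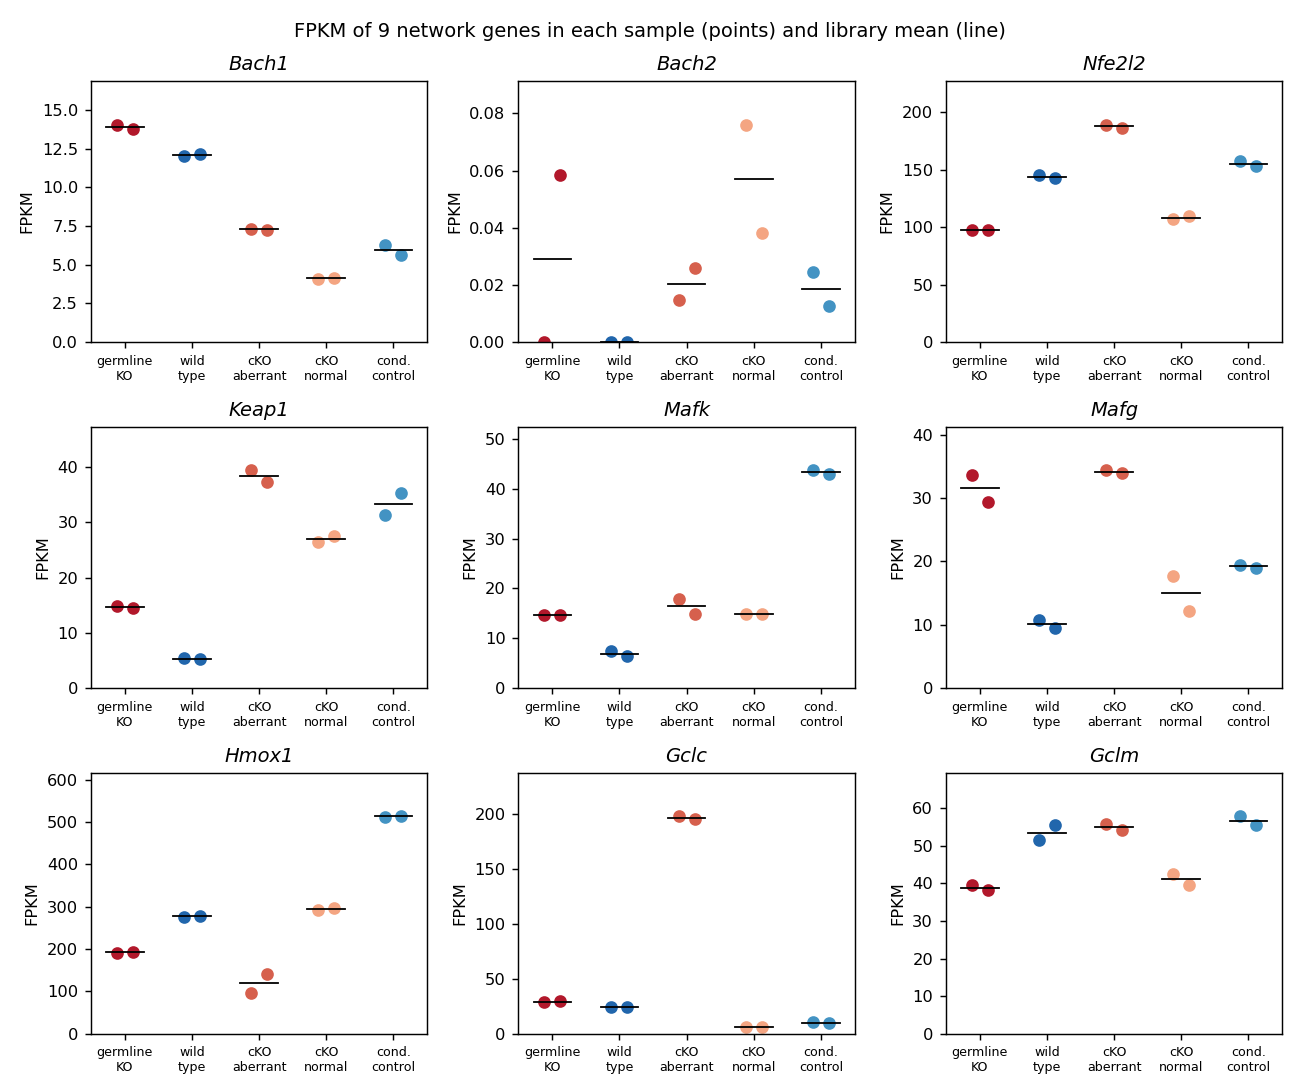
FPKM (vertical axes, each from 0) of the 9 measured network genes in both samples of every library (points, 2 per library) with the library mean (line). Gclc stands far above the other libraries in the aberrant-marker library, Mafk and Hmox1 in the conditional control, and Bach2 is at most 0.0761 FPKM in any sample; cKO stands for conditional knockout and cond. for conditional.

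Bach1, the haem-regulated repressor of Hmox1, was at 14.1 and 13.8 FPKM in germline knockout samples, against 12.01 and 12.2 FPKM in wild-type samples. It was at 7.33 and 7.22 FPKM in aberrant-marker samples and 4.06 and 4.17 in normal-marker samples, against 6.29 and 5.62 FPKM in conditional control samples. All samples of the conditional line lay below all those of the germline line. The knockout to control differences were 0.19 (germline), 0.25 (aberrant-marker) and -0.44 (normal-marker) on the log2(FPKM + 1) scale, all smaller than the 0.91 by which the wild type exceeded the conditional control. With the wild type in place of the conditional control, the aberrant-marker difference became -0.66.

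Nfe2l2, which encodes NRF2, was among the more abundant transcripts of every library, above 91.9% to 95.6% of the 11336 genes that passed the filter. It was at 97.3 and 97.7 FPKM in germline knockout samples, against 145 and 142 FPKM in wild-type samples. In the conditional line it was at 189 and 186 FPKM in aberrant-marker samples and 107 and 109.7 in normal-marker samples, against 158 and 153 FPKM in conditional controls. The runs of the 5 libraries did not overlap, but neighbours in the order were only 1.08-fold to 1.33-fold apart. The log2 differences were -0.56 in the germline knockout, 0.27 in the aberrant-marker and -0.52 in the normal-marker library, none of them called.

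Keap1, the sensor that restrains NRF2, followed another order. Its level was 14.8 and 14.4 FPKM in germline knockout samples, against 5.37 and 5.27 FPKM in wild-type samples, a 2.75-fold ratio that stayed under the threshold. It was at 39.4 and 37.3 FPKM in aberrant-marker and 26.5 and 27.5 FPKM in normal-marker samples, against 31.3 and 35.3 FPKM in conditional controls. The wild type was lower than the conditional control (log2 difference -2.44, called), so the sign of the germline knockout difference depended on the control: 1.31 against the wild type and -1.13 against the conditional control, an alternative chosen after the data were seen. Counting only the most abundant transcript gave -2.12 between the controls, no longer called, and 0.78 in the germline knockout.

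The table lists 4 Keap1 transcripts, and 1 of them took most of the signal in each library, from 62.8% in the germline knockout to 96.8% in the aberrant-marker library. A transcript of 3172 bases held 23.8% of Keap1 FPKM in the germline knockout, against 2.65% in the wild type, and 0.373% to 3.26% in the conditional line. In the germline knockout that share was 17.7% and 30.1% in the 2 samples, above every sample of the other libraries. Transcripts of 1 gene share sequence, and the split between them is a model estimate.

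Mafk and Mafg encode small Maf proteins, which lack an activating domain and serve as the DNA-binding partners of Bach and NRF2. Mafk was at 14.7 and 14.7 FPKM in germline knockout samples, against 7.34 and 6.34 FPKM in the wild type. Aberrant-marker samples had 17.8 and 14.9 FPKM and normal-marker samples 14.9 and 14.8, against 43.7 and 43.0 FPKM in conditional controls. The conditional control was thus highest, 2.65-fold above the next library, the wild type was lowest, and the 3 knockout libraries lay close together at means of 14.7 to 16.4 FPKM. The wild type was lower than the conditional control by a called log2 difference of -2.50. Direction in the knockouts depended on the control, with -1.35 for the aberrant-marker and -1.48 for the normal-marker library against their own control, and 1.15 and 1.02 against the wild type.

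Mafg had 33.6 and 29.4 FPKM in germline knockout samples, against 10.8 and 9.55 FPKM in wild-type samples, a 3.10-fold ratio of means. It was at 34.4 and 34.0 FPKM in aberrant-marker and 17.6 and 12.2 FPKM in normal-marker samples, against 19.4 and 18.9 FPKM in conditional controls. The germline knockout and aberrant-marker libraries lay above the other 3 in every sample. The log2 differences were 1.54 in the germline knockout and 0.80 in the aberrant-marker library, short of the call. The 2 normal-marker samples differed by 0.50 on that scale, and both lay below the conditional controls.

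The summed FPKM of Mafk and Mafg was 46.2 in the germline knockout, against 17.0 in the wild type. It was 50.6 in the aberrant-marker and 29.8 in the normal-marker library, against 62.5 in the conditional control. The composition differed too: Mafg exceeded Mafk 2.15-fold in the germline knockout and 1.48-fold in the wild type, and the ratio was 2.09 in the aberrant-marker and 1.01 in the normal-marker library, against 0.443 in the conditional control.

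**Figure D2:**
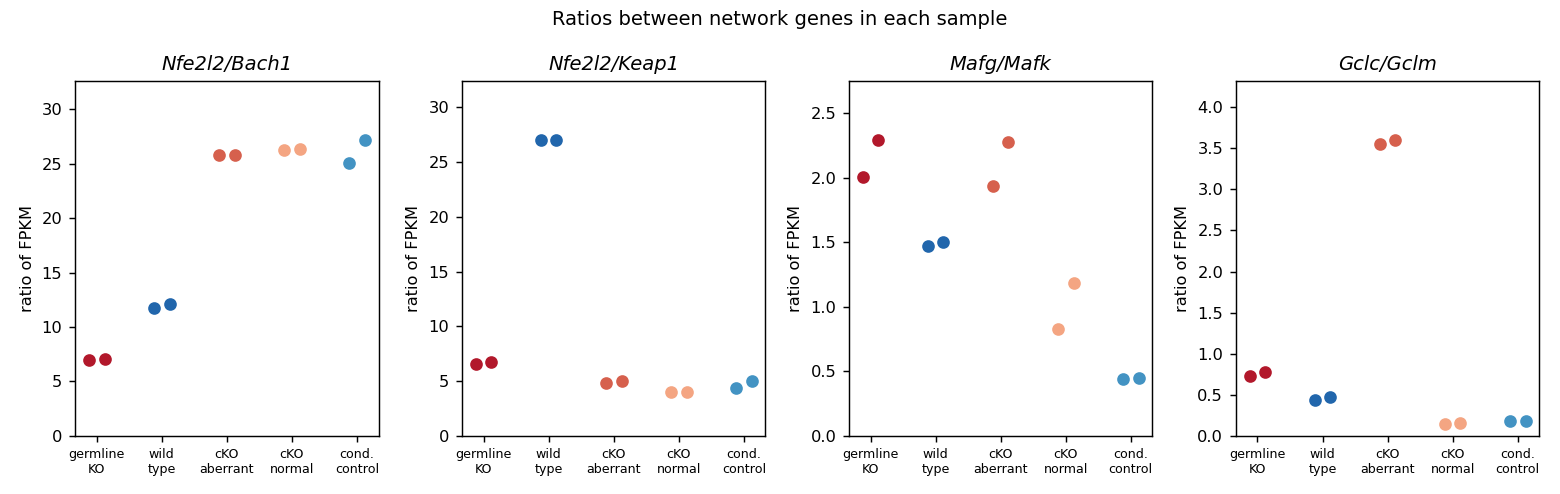
Ratios of FPKM between pairs of network genes (vertical axes, from 0) in the 2 samples of each library, the lower one on the left. Nfe2l2 over Bach1 is close to 26 in the 3 conditional-line libraries, Nfe2l2 over Keap1 stands highest in the wild type at 27.0, and Gclc over Gclm exceeds 1 in the aberrant-marker library.

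Of the ratios between activator and inhibitor transcripts, Nfe2l2 to Bach1 was alike within the conditional line, and Nfe2l2 to Keap1 stood apart in the wild type. The ratio of Nfe2l2 to Bach1 was 7.01 in the germline knockout, against 11.9 in the wild type. It was 25.8 in the aberrant-marker and 26.3 in the normal-marker library, against 26.0 in the conditional control, although each gene was lower in the normal-marker library than in the other 2. Nfe2l2 to Keap1 was 6.66 in the germline knockout, against 27.0 in the wild type, and 4.89 and 4.02 in the aberrant-marker and normal-marker libraries, against 4.66 in the conditional control. These are ratios of transcript levels per length, not of proteins.

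Hmox1 encodes haem oxygenase 1, the classic gene repressed by Bach1. It was at 190.1 and 194 FPKM in germline knockout samples, against 277 and 279 FPKM in the wild type. In the conditional line it was at 96.5 and 141 FPKM in aberrant-marker and 291 and 297 FPKM in normal-marker samples, against 513 and 514 FPKM in conditional controls. Each knockout library had less Hmox1 than its own control in every sample, and the aberrant-marker samples were the lowest of all. The aberrant-marker difference was -2.10 in the means and ranged from -2.40 to -1.85 over pairings, so it missed the call through 1 sample; without that sample Hmox1 was called. The 2 aberrant-marker samples differed by 0.54 on the log2 scale, where the median gene above 20 FPKM differed by at most 0.0509 between samples of a group. The germline difference was -0.53 and the normal-marker difference -0.80, and 0.08 for the normal-marker library against the wild type.

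Erythroid transcripts were looked up as a trace of red cell RNA in the samples. They do not measure haem, whose part in the Hmox1 values was not tested. All 10 erythroid markers found were listed at 0 in the germline knockout, the wild type and the aberrant-marker library, and their sum was at most 2.55 FPKM in the normal-marker and 0.824 FPKM in the conditional control samples.

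Gclc and Gclm encode the catalytic and modifier subunits of glutamate-cysteine ligase, which makes the precursor of glutathione, and both are textbook NRF2 targets. Gclc was at 28.6 and 29.6 FPKM in germline knockout samples, against 24.4 and 24.3 FPKM in wild-type samples. It reached 198 and 195 FPKM in aberrant-marker samples and was at 6.44 and 5.83 FPKM in normal-marker samples, against 10.3 and 9.87 FPKM in conditional controls. The aberrant-marker library was 6.77-fold above the next library, and no samples of different libraries overlapped. Gclc was called higher in the aberrant-marker library against the conditional control (log2 difference 4.16), against the normal-marker library (4.79) and against the wild type (2.96). Of its 2 listed transcripts, the one of 3423 bases held 74.2% of the FPKM in the aberrant-marker library, against 52.8% in the conditional control. That transcript alone gave a log2 difference of 4.54 in the aberrant-marker library, and of 0.0013 in the germline knockout, against 0.25 over both transcripts.

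Gclm was at 39.6 and 38.1 FPKM in germline knockout samples, against 51.5 and 55.6 FPKM in wild-type samples. It was at 55.8 and 54.3 FPKM in aberrant-marker and 42.6 and 39.7 FPKM in normal-marker samples, against 57.9 and 55.6 FPKM in conditional controls. The aberrant-marker samples overlapped both the wild-type and the conditional control samples, which did not overlap each other. Its aberrant-marker difference of -0.04 became 0.02 when the columns were scaled to a common median ratio. The Gclc to Gclm ratio was 3.58 in the aberrant-marker and 0.149 in the normal-marker library, against 0.178 in the conditional control, and 0.748 in the germline knockout, against 0.455 in the wild type.

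Which cells held the Gclc transcripts of the aberrant-marker library cannot be read from a bulk sample, in which fewer cells of a type and less RNA per cell cannot be told apart. The summed T cell markers were 336 to 340 FPKM there and 267 to 270.2 in normal-marker samples, against 331 to 334 FPKM in conditional controls. Cd2 accounted for 45.7 FPKM of this in the aberrant-marker and 263 in the normal-marker library, against 329.6 FPKM in the conditional control. Cd3e and Cd3g were at 17.7 and 24.1 FPKM in the aberrant-marker library and listed at 0 in the other 4. Dendritic cell markers summed to 5483 to 5527 FPKM in aberrant-marker samples and 65.2 to 69.3 in normal-marker samples, against 88.5 to 89.0 FPKM in conditional controls, with Ccr7 at 1564 FPKM and Flt3 at 37.4 FPKM in the aberrant-marker library. They summed to 305 to 311 FPKM in the germline knockout, against 95.2 to 99.6 in the wild type, with 6 and 3 of the 12 at 1 FPKM or more. In the germline knockout Ccl22, Ccr7 and Cd83 were at 128, 71.6 and 60.4 FPKM, against 0.140, 0.0333 and 53.1 in the wild type. Flt3 was at 0.667 FPKM in the germline knockout, and Cd209a, Itgae and Clec9a were listed at 0. The aberrant-marker sum was also largely Ccl22 (2002 FPKM), Ccr7 and Cd83 (1276 FPKM). The part of T cell and dendritic cell transcripts in the Gclc, Hmox1 and Mafg values was not tested.

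**Figure D3:**
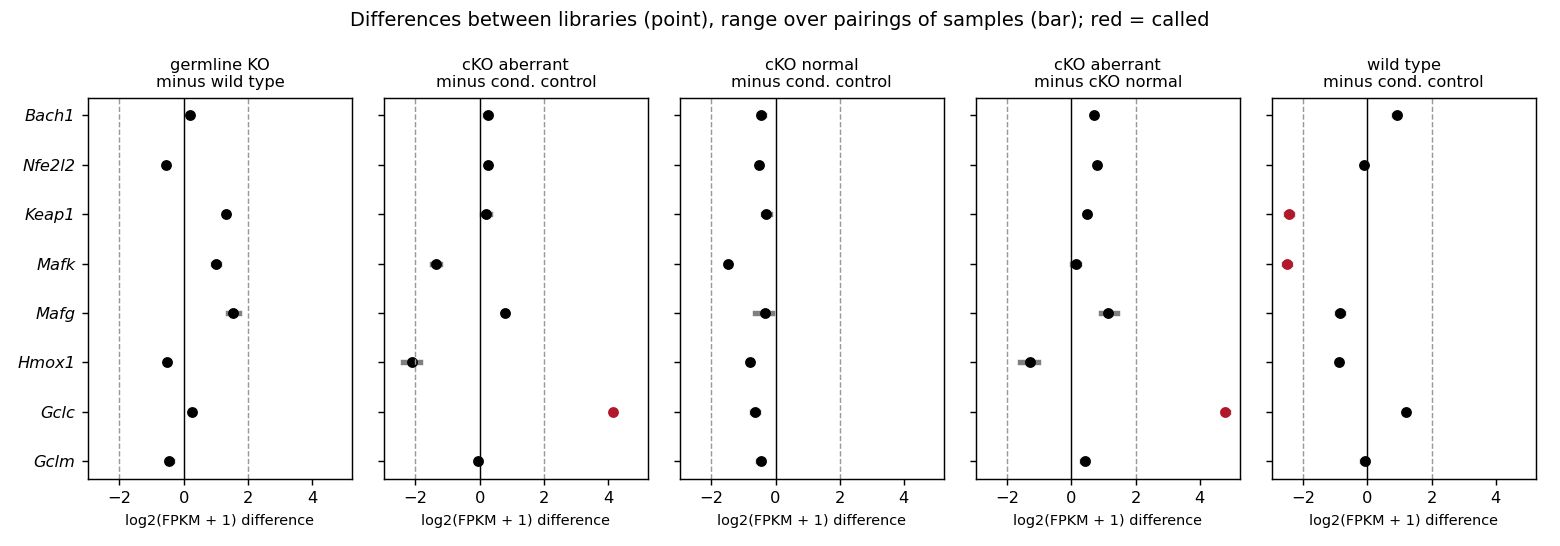
Differences on the log2(FPKM + 1) scale (horizontal axes) of the 8 network genes that passed the filter, in 5 comparisons; points are differences of library means, bars the range over the 4 pairings of samples, dashed lines the 4-fold threshold and red points called genes. Gclc lies at 4.16 and 4.79 in both comparisons of the aberrant-marker library, and Keap1 and Mafk lie at -2.44 and -2.50 between the controls.

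Counted over the network, 8 genes passed the filter, each at 1 FPKM or more in all 10 columns. A gene under 20 FPKM in both libraries of a comparison could not be called at either threshold. Bach1, at most at a mean of 13.9 FPKM, was therefore outside every call. Keap1 and Mafk, at most at 14.6 and 14.7 FPKM, were outside it in the germline comparison. So were Mafg and Gclc, at most at 19.2 and 10.1 FPKM, in the normal-marker against conditional control comparison. Mafg was under it between the controls, and Mafk between the conditional knockout fractions. In the germline knockout against the wild type 0 of 8 were called, where 6.10% of the 11336 genes were called, 2.73% higher and 3.36% lower. At a 2-fold threshold with the same floor Mafg alone passed, as higher, with 15.1% of all genes passing, 6.13% as higher and 8.98% as lower. In the aberrant-marker library against the conditional control 1 of 8, Gclc, was called higher, against 7.85% of all genes, 4.09% higher and 3.76% lower. At 2-fold Mafk and Hmox1 also passed, as lower, with 17.7% of all genes passing, 8.60% as higher and 9.13% as lower. For the normal-marker library against the conditional control the count was 0 of 8, against 1.77% of all genes, 0.935% higher and 0.838% lower. Mafk passed at 2-fold as lower, against 7.38% of all genes, 3.34% higher and 4.04% lower. Between the aberrant-marker and the normal-marker library 1 of 8 was called, Gclc, as higher, against 7.28% of all genes, 4.02% higher and 3.26% lower. Hmox1 also passed at 2-fold, as lower, against 17.5% of all genes, 9.27% higher and 8.19% lower. In the wild type against the conditional control 2 of 8, Keap1 and Mafk, were called lower, against 2.11% of all genes, 0.935% higher and 1.17% lower. Of the lung epithelium markers 4 passed the filter, and they did not move together. Scgb1a1 was at 6.56 FPKM in the wild type, against 39.7 in the conditional control, and Bpifa1 at 4.00, against 32.0 FPKM, both called lower. Epcam was at 147 FPKM in the wild type, against 126 in the conditional control, and Cdh1 at 17.0, against 19.6 FPKM, neither called. The 10 markers of that list summed to 173 to 176 FPKM in wild-type samples, against 216 to 219 FPKM in conditional controls, with 4 at 1 FPKM or more in each and Sftpc, Sftpb and Sftpa1 listed at 0, and their part in the Keap1 and Mafk values was not tested. The controls also differed in apparent sex, as given above, and its part in the Keap1, Mafk and Bach1 values was not tested. Gclc also passed at 2-fold, as higher, against 7.96% of all genes, 3.81% higher and 4.15% lower.

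Median log2 differences of the 8 genes were 0.22 in the germline knockout, 0.22 in the aberrant-marker library and -0.49 in the normal-marker library, where the median of all genes tested was 0 in each. A positive difference was found for 0 of the 8 in the normal-marker library against the conditional control, where 42.4% of all genes tested had one. All 8 were negative, while the other genes tested include some with a difference of 0. Against the wild type 4 of the 8 were positive instead, Keap1 at 2.15, Mafk at 1.02, Mafg at 0.51 and Hmox1 at 0.08. Among genes above 20 FPKM the median was -0.14 in the germline comparison, and scaling the columns moved it by 0.15; the germline differences of Nfe2l2, Hmox1 and Gclm were then -0.41, -0.38 and -0.31, and those of Keap1, Mafk and Mafg 1.43, 1.13 and 1.68. Over the 5 libraries, the log2 range of Gclc, 4.79, exceeded that of 91.6% of the 5506 genes at 20 FPKM or more in some library, and that of Gclm, 0.53, exceeded that of 3.36%.

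Further genes of the same pathways were taken from 6 lists, of which 94 of 103 genes passed the filter. In the germline knockout 5 were called higher and 3 lower. The aberrant-marker library had 7 higher and 9 lower than the conditional control, and 6 and 6 against the normal-marker library. The normal-marker library had 1 higher and 0 lower than the conditional control, and the wild type 0 and 1. As shares these were 8.51%, 17.0%, 12.8%, 1.06% and 1.06% of the 94, beside the shares of all genes given above. The shares were not adjusted for level. Genes under 20 FPKM in both libraries could not be called, and the list genes that reached that floor were not counted. Several called genes were at or near 0 in the lower library: of the 8 calls in the germline knockout 4 had 1 FPKM or more in both libraries, against all 16 in the aberrant-marker against conditional control comparison. The T cell and dendritic cell transcripts of the aberrant-marker library accompany each of its counts, and their part in the pathway genes was not tested.

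Genes of glutathione synthesis and use divided. Slc7a11, the cystine importer, was at 11.6 FPKM in the germline knockout, against 2.71 FPKM in the wild type. It was at 33.3 FPKM in the aberrant-marker and 2.52 in the normal-marker library, against 2.84 FPKM in the conditional control, and its heavy chain partner Slc3a2 was at 311 and 94.8, against 65.7 FPKM. Both rose in the aberrant-marker library (log2 differences 3.16 and 2.23). Gsr, the glutathione reductase, was at 83.1 FPKM in the germline knockout, against 217 in the wild type, and at 31.1 in the aberrant-marker and 203 in the normal-marker library, against 255 FPKM in the conditional control. In the aberrant-marker library Gsr, the glutathione transferase gene Gstm1 and the microsomal transferase gene Mgst3 fell (-2.995, -2.35 and -2.13). Of 22 list genes 2 were called higher and 3 lower there, with a list median of -0.73, beside 4.09% and 3.76% of all genes. None was called in the normal-marker library or between the controls, where 1.77% and 2.11% of all genes were. In the germline knockout Mgst3 fell (-2.43), and Chac1, an enzyme that degrades glutathione, was called, at 27.8 FPKM against a listed 0.

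**Figure D4:**
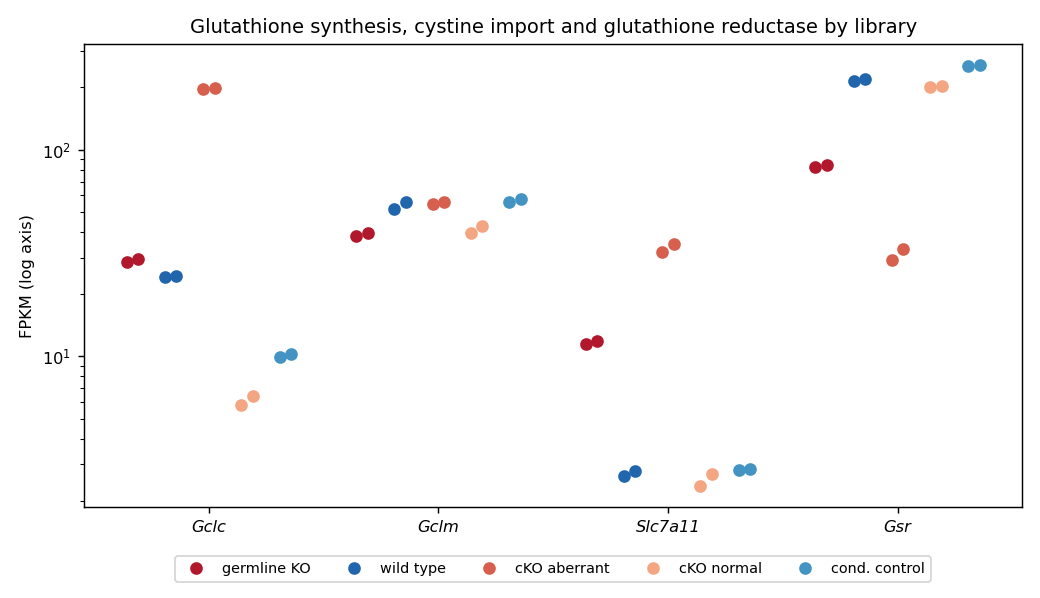
FPKM on a log axis of Gclc, Gclm, the cystine importer gene Slc7a11 and the glutathione reductase gene Gsr in the 2 samples of each library, coloured by library. In library means, Gclc and Slc7a11 are at 197 and 33.3 FPKM in the aberrant-marker library, above the other 4 libraries, and Gsr at 31.1 FPKM lies below them. The means of Gclm stay between 38.9 and 56.8 FPKM in all libraries.

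The thioredoxin, NADPH and detoxification list held 0 higher and 2 lower of 21 in the aberrant-marker library against the conditional control. Of all genes 4.09% were called higher and 3.76% lower in that comparison. The 2 were the NADPH-producing enzymes G6pdx (11.9 against 96.2 FPKM in the conditional control) and Idh1 (32.5 against 201 FPKM). Nqo1, a quinone reductase often used as a readout of NRF2, was listed at 0 in the germline knockout, against 20.3 FPKM in the wild type (18.8 and 21.8 in its samples), and was called lower. It was listed at 0 in the aberrant-marker and normal-marker libraries as well, against 10.1 FPKM in the conditional control. Txnrd1, thioredoxin reductase, was at 91.4 FPKM in the germline knockout, against 44.6 in the wild type, and at 88.6 and 90.5 FPKM in the aberrant-marker and normal-marker libraries, against 47.8 in the conditional control. All 3 knockout libraries thus had more Txnrd1 and less Nqo1 than either control, though Txnrd1 was not called and Nqo1 only in the germline comparison. Against the conditional control Nqo1 differed by -3.48 in both fractions, but it was under the floor of 20 FPKM and could not be called. The listed zeros rest on 1 library per group, in which transcripts can be missing. Between the controls, Akr1b8 of the same list was at 9.75e-27 FPKM in the wild type, against 10.7 in the conditional control, and Me1 at 3.79 against 0. Whether the Nqo1 zeros are losses of this kind was not tested. Srxn1, sulfiredoxin, was at 13.8 FPKM in the germline knockout, against 8.33 in the wild type, and at 23.7 and 9.24 FPKM in the aberrant-marker and normal-marker libraries, against 19.4 in the conditional control.

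Haem genes held 1 higher and 3 lower of 18 in the aberrant-marker library, with a list median of -0.54. Of all genes 4.09% were called higher and 3.76% lower in that library against the conditional control. Alas1, the first enzyme of haem synthesis, fell to 40.8 FPKM in the aberrant-marker library, against 341 in the conditional control (log2 difference -3.03), and was at 312 FPKM in the normal-marker library. In the germline knockout it was at 212 FPKM, against 329 in the wild type. Blvra, a biliverdin reductase downstream of Hmox1, and the haem-binding protein gene Hebp1 also fell in the aberrant-marker library (-2.18 and -2.73), and Slc25a38, the mitochondrial glycine carrier for haem synthesis, rose (2.25). The controls were far apart in Slc25a38, at 0.0863 FPKM in the wild type and 10.3 in the conditional control. In the germline knockout Uros, an enzyme of haem synthesis, fell to 3.01 FPKM, against 20.9 in the wild type, and between the controls Urod, another, was lower in the wild type (7.80 against 41.5 FPKM).

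Among 11 iron genes, Slc11a1, the phagosomal metal transporter, rose in the germline knockout, at 182 FPKM against 5.28 in the wild type, and in the aberrant-marker library, at 127 FPKM against 4.28 in the conditional control. Tfrc, the transferrin receptor, rose in the germline knockout (26.1 against 0.650 FPKM). The ferritin heavy chain gene Fth1, a known Bach1 target, was at 28941 FPKM in the germline knockout, against 29566 in the wild type, and at 10650 FPKM in the aberrant-marker and 33357 in the normal-marker library, against 31884 in the conditional control. Slc40a1, the iron exporter, was listed at 0 in the germline knockout and aberrant-marker libraries, against 6.62 FPKM in the wild type and 9.05 in the conditional control, below the floor of the call.

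Of the regulators, Nfe2l1, the NRF2 relative, rose in the aberrant-marker library (113 against 22.8 FPKM in the conditional control), and Fbxo22, which encodes a ubiquitin ligase subunit that degrades BACH1, fell (8.88 against 79.8 FPKM). Cul3, the ligase scaffold used by KEAP1, was higher in the aberrant-marker than in the normal-marker library (58.7 against 6.38 FPKM). Of the AP-1 and Batf genes, whose proteins bind overlapping sites, Atf3 rose in the germline knockout (109.5 against 11.9 FPKM) and in the aberrant-marker library (131 against 12.4 FPKM in the conditional control). Batf3 rose in both conditional knockout fractions, at 148 FPKM in the aberrant-marker and 45.9 in the normal-marker library, against 8.06 FPKM in the conditional control; it is also a dendritic cell factor, and the marker sums given above apply.

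**Figure D5:**
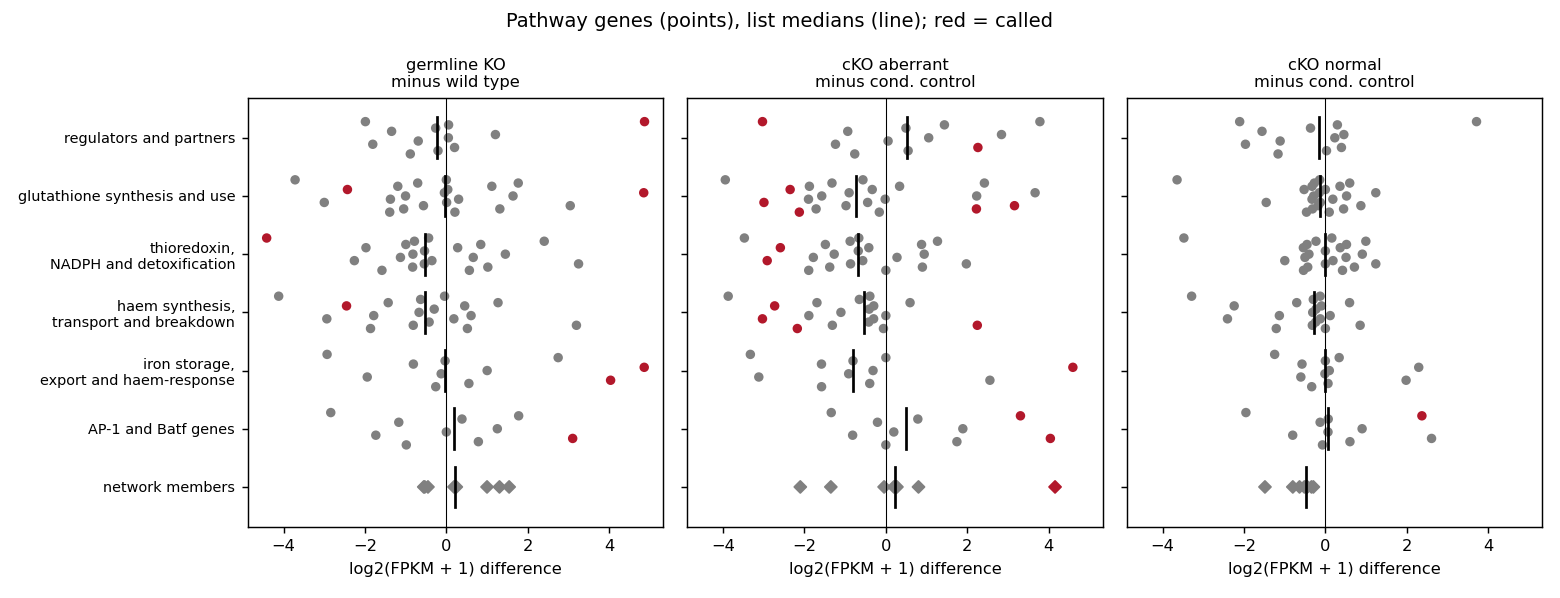
Differences on the log2(FPKM + 1) scale (horizontal axes) of the pathway list genes that passed the filter (points), with the list median (line) and the 8 network genes (diamonds), for 3 knockout to control comparisons; red marks called genes and vertical offsets within a list carry no meaning. The aberrant-marker panel holds 16 called list genes, the germline panel 8 and the normal-marker panel 1.

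Genes with the most similar profile over the 5 library means were looked up for the 7 network genes that reached 20 FPKM. The search covered 5318 genes at that level, with predicted genes (names in Gm, LOC or Rik) left out. Likeness was the root mean square difference of centred log2(FPKM + 1) values, where 0 is identity. For Hmox1 the nearest were Adipor2 (0.149), Pgd (0.166), an enzyme of the oxidative pentose phosphate pathway, and Cyb5r3 (0.170). Pgd was at 142 FPKM in the germline knockout, against 252 in the wild type, and at 94.0 and 224 FPKM in the aberrant-marker and normal-marker libraries, against 326 in the conditional control. For Gclc they were Tmem8 (0.204), Tmem123 (0.231) and Zbtb18 (0.304), with Tmem123 at 657 FPKM in the aberrant-marker and 21.6 FPKM in the normal-marker library, against 27.7 FPKM in the conditional control. For Gclm they were Hsp90ab1 (0.0438), Sf3b5 (0.0613) and Hnrnpk (0.0641), for Nfe2l2 Lztr1 (0.0591), Dnajc8 (0.0671) and Stx5a (0.0845), and for Keap1 Ehd1 (0.184), Zkscan3 (0.187) and Srp54b (0.213). Mafk was nearest to Mettl3 (0.195), Brms1 (0.202) and Vps53 (0.216), and Mafg to Gab2 (0.0846), Jtb (0.117) and Socs6 (0.156). With 5 libraries, many genes match a profile closely, so these are descriptions only.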

How the data were processed

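RNA of 100 pg per sample was amplified through 18 PCR cycles, per the labels' protocols; such libraries carry no molecular identifiers or strand, and rare transcripts can be missing. The authors deposited FPKM values for 45913 RefSeq transcripts in 10 columns. Bowtie 1.1.2 and eXpress 1.5.1 are named in the submitters' processing notes, with no role; genome build and filters are not given here in any source used. Products of FPKM and transcript length, from GENCODE lengths of 32449 transcripts, summed to 1040000 to 1090000 per column.

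Transcripts of 1 Entrez gene were added up. The 11336 genes that reached 1 FPKM in 2 or more columns were kept and put on the log2(FPKM + 1) scale, which understates changes of low genes, and the columns were not rescaled. No test across genes was used, since the samples of a group differ by little more than sampling noise: in reads estimated from FPKM steps, the squared difference of 2 samples divided by their sum had medians of 0.600 to 0.944 within groups, where sampling alone gives 0.455, and of 68.4 to 102 between groups. Depths rest on annotated lengths and are approximate.

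All network genes are named. Of each pathway list, up to 4 called genes per comparison, the largest first, and 8 fixed genes are named; other genes were named after their values were seen. A called list gene is counted but not reported here by name. Members, lists and the calling rule were chosen with earlier results of these data known. Computation used Python 3.11.15, numpy 2.4.6 and pandas 2.3.3.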

Additional observations from a re-analysis of the deposited data

Results flagged for a closer look

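Some genes differed in opposite directions in the germline knockout and in a conditional knockout fraction, each against its own control, in every pairing of samples. The differences between the effects were not tested, and the values are on the log2(FPKM + 1) scale. For Nfe2l2 the difference was -0.56 in the germline knockout and 0.27 in the aberrant-marker library. Mafk was at 1.00 in the germline knockout, and at -1.35 in the aberrant-marker and -1.48 in the normal-marker library. Keap1 was at 1.31 in the germline knockout and -0.29 in the normal-marker library. The same pair of values was 1.54 and -0.34 for Mafg, 0.25 and -0.64 for Gclc, and 0.19 and -0.44 for Bach1. The Gclc transcript of 3423 bases alone was at 19.59 FPKM in the germline knockout, against 19.58 in the wild type, with overlapping samples. The positive Gclc value thus came from the other listed transcript. For Keap1 and Mafk the control libraries themselves were called apart. Against the conditional control the germline knockout stood at -1.13 for Keap1 and -1.50 for Mafk. Against the wild type the normal-marker library stood at 2.15 for Keap1, 1.02 for Mafk and 0.51 for Mafg, and the aberrant-marker library at 1.15 for Mafk, so that these signs were no longer opposite; the normal-marker values of Bach1 and Gclc were -1.35 and -1.83, and the aberrant-marker value of Nfe2l2 was 0.38.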

How the results depend on the processing

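Leaving out any 1 sample gave 1 to 2 members called in the aberrant-marker library against the conditional control, the second being Hmox1, and changed no other count of members. Of 400 member values under the alternatives that kept the control library, 1 changed sign, Gclm in the aberrant-marker library. A 2-fold threshold called 1, 3, 1 and 2 members in the germline, aberrant-marker, normal-marker and aberrant-marker against normal-marker comparisons, and 1713, 2010, 837 and 1979 genes, with 902 between the controls. A floor of 5 FPKM called 1926, 2180, 1064, 2165 and 1198 genes in the same order. With the wild type as the control, 2 members, Keap1 and Gclc, were called higher in the aberrant-marker library and 1, Keap1, in the normal-marker library, with 319 genes called in the normal-marker library. The most abundant transcript alone left 1 member called between the controls. Under a pseudocount of 0.1, no filter on low values, scaled columns and the conditional control as the control of the germline knockout, the last chosen after the data were seen, counts stayed within 1.5 times of those reported. No paired analysis was possible because no sample number is shared between groups. Levels near 1 read, such as Bach2, set the limit of depth.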

Other observations

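Bach2os, an RNA transcribed antisense to Bach2, was listed at 0 in 8 of 10 samples and at 0.151 and 0.0778 FPKM in the germline knockout samples. The libraries do not mark strand, so reads of the 2 overlapping genes cannot be told apart where they share sequence. It was named after its values were seen.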
